A study of Mus musculus with 38 samples.

Results

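The comparison described here sets whole tissue around B16-shVEGF tumors at day 14 after inoculation against the same kind of tissue at day 4. B16 is a mouse melanoma line, and the name shVEGF stands by convention for a short hairpin RNA against the growth factor VEGF. There were 6 arrays labelled shVEGF day 14 and 5 labelled shVEGF day 4, chosen by the day and line in the sample titles, together 11 of the 38 arrays of the study. All animals were C57BL/6 mice of 8 weeks, and the labels describe each sample as the tumor microenvironment. The other arrays were 5 of shTGFb day 14, 6 of shTGFb day 4, 5 of B16-WT day 14, 4 of B16-WT day 4 and 7 of control tissue. No line with a control hairpin was analysed here, and the labels do not say whether the shVEGF line is 1 clone, where the tumors grew, or whether each array stands for its own animal. P-values therefore measure only the spread between these samples, which may be technical. Total RNA was measured on Illumina bead arrays, and each value below is a log2 signal after background correction and quantile normalization. Arrays carry the numbers in their titles, while the sample descriptions give replicate 5 for all 11. Samples with the same number at both days are treated as pairs where this is stated.

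VEGF-A is a secreted growth factor that acts on receptor tyrosine kinases of endothelial cells and makes new vessels sprout. VEGF-B and placental growth factor bind the receptor Flt1, and VEGF-C and VEGF-D act mainly on lymphatic vessels. Neuropilins are co-receptors. Tissue taken around a tumor can hold epidermis, hair follicles, fat, muscle and vessels beside tumor and immune cells. In whole tissue, fewer cells of a type and less RNA per cell cannot be told apart.

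The 11 arrays differed more from one another than the days did. The detection p was under 0.05 for 17291 to 22893 probes, depending on the array. Over the 9869 genes tested, the first principal component held 51.6% of the variance, and 8.59% of the variance of its scores lay between the days. The second held 17.7%. For the median gene, 3.94% of the variance between arrays lay between the days. Spearman correlations averaged 0.898 over the 15 pairs of day 14 arrays, 0.817 over the 10 pairs of day 4 arrays and 0.864 over the 30 pairs of 1 array from each day. The SD over day 4 arrays exceeded that over day 14 arrays for 73.1% of genes, with median SDs of 0.48 at day 14 and 0.62 at day 4. For 0 of the 11 arrays did the most similar other array belong to the same labelled group. It was a control array for 5 of the 11, an shTGFb array for 3, a B16-WT array for 2 and an shVEGF array of the other day for 1, with correlations of 0.896 to 0.991.

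**Figure D1:**
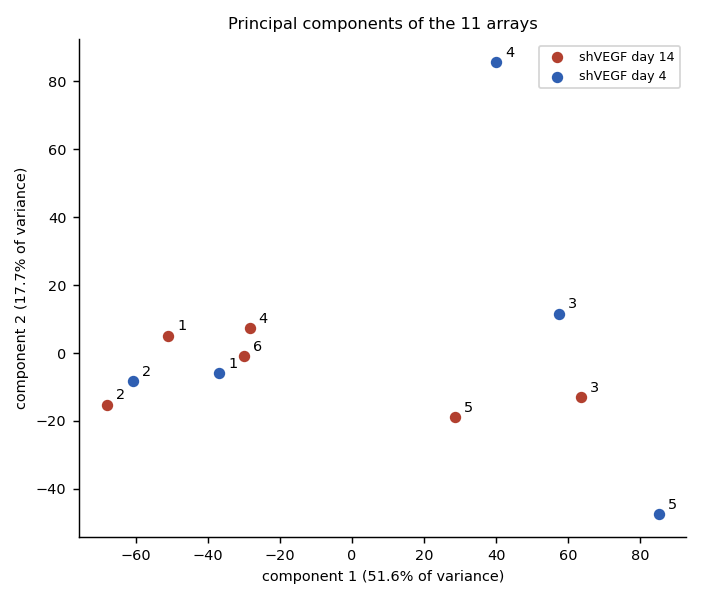
Scores of the 11 arrays on the first (horizontal) and second (vertical) principal component of log2 signal over 9869 genes, in arbitrary units, with each array's number beside its point. The day 14 and day 4 points are intermixed along the first component, and day 4 arrays 4 and 5 lie at opposite ends of the second, at 85.6 and -47.4.

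Markers of the labelled tissue were present, but in amounts that varied by array. All 6 melanocyte markers, all 5 fibroblast markers and 4 of 5 endothelial markers were measured. Detected on all 11 arrays were 3 of the melanocyte, 5 of the fibroblast and 4 of the endothelial markers. Of other types checked, 0 of 3 B cell and 0 of 2 Schwann cell markers were measured. Of 3 hair follicle markers 2 were measured, and 0 were detected on all 11 arrays. Mlana, a melanosome protein, had signals of 4.61 to 14.29 at day 14 (median 12.34), against 12.23, 5.37, 14.13, 12.50 and 13.99 on day 4 arrays 1 to 5. Dct, an enzyme of melanin synthesis, had 7.80 to 14.34 at day 14 (median 13.96), against 13.96, 8.10, 14.10, 14.16 and 14.04 on day 4 arrays 1 to 5. Array 2 of both days was thus low in both pigment genes, and the 2 groups overlapped. Mlana averaged 11.83 ± 3.31 (SD, n = 7) on control arrays, so signal of this pigment gene was also present in tissue labelled control.

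Skin and muscle genes set other arrays apart. Krt14, a keratin of basal epidermis, had 14.17 to 14.58 at day 14 (median 14.47), against 14.45, 14.50, 13.51, 10.01 and 12.48 on day 4 arrays 1 to 5. Day 4 array 4 was thus far below all others, with arrays 5 and 3 of day 4 next. Over the 28 measured genes of the epidermal keratinocyte list, the mean log2 signal was 5.88 on day 4 array 4 and lay between 8.57 and 12.80 on the other 10 arrays. Krt71, an inner root sheath keratin of hair, had 4.34 to 14.56 at day 14 (median 4.54), against 4.88, 4.56, 12.63, 5.06 and 11.65 on day 4 arrays 1 to 5. It was high on arrays 3 and 5 of both days and near the lowest signals elsewhere. Myl1, a myosin light chain of skeletal muscle, had 13.19 to 14.64 at day 14 (median 14.37), against 14.59, 14.52, 14.48, 14.50 and 10.67 on day 4 arrays 1 to 5, with day 4 array 5 standing low. On that array the mean of 33 muscle genes was 7.44, against 8.71 to 12.49 on the other 10. Dcn, the fibroblast proteoglycan decorin, had 13.31 to 14.44 at day 14 (median 14.17), against 14.21, 14.45, 13.71, 14.10 and 12.35 on day 4 arrays 1 to 5. Adipoq, the fat cell hormone adiponectin, had 9.58 to 12.98 at day 14 (median 12.09), against 11.42, 12.75, 10.001, 12.06 and 11.21 on day 4 arrays 1 to 5. Ptprc, the leukocyte surface protein CD45, had 5.29 to 6.54 at day 14 (median 6.17), against 6.09, 6.08, 5.00, 6.75 and 4.80 on day 4 arrays 1 to 5. Dcn, Adipoq and Ptprc overlapped between the days, with differences of 0.19, 0.18 and 0.31. Dimmer probes of Dcn gave 0.72 and 0.82. Leaving out day 4 arrays 4 and 5 together moved the difference of 108 of the 173 genes named here by over 1.5 times or turned its sign, and leaving out array 2 of both days moved that of 29. Values without such arrays are given beside some list medians and some of the genes. A gene or list given without such a value was not thereby stable. Turned signs of named genes are listed at the end. The labels do not settle whether each array holds the tissue that its label names, and a day 14 minus day 4 value is a value between labelled arrays.

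**Figure D2:**
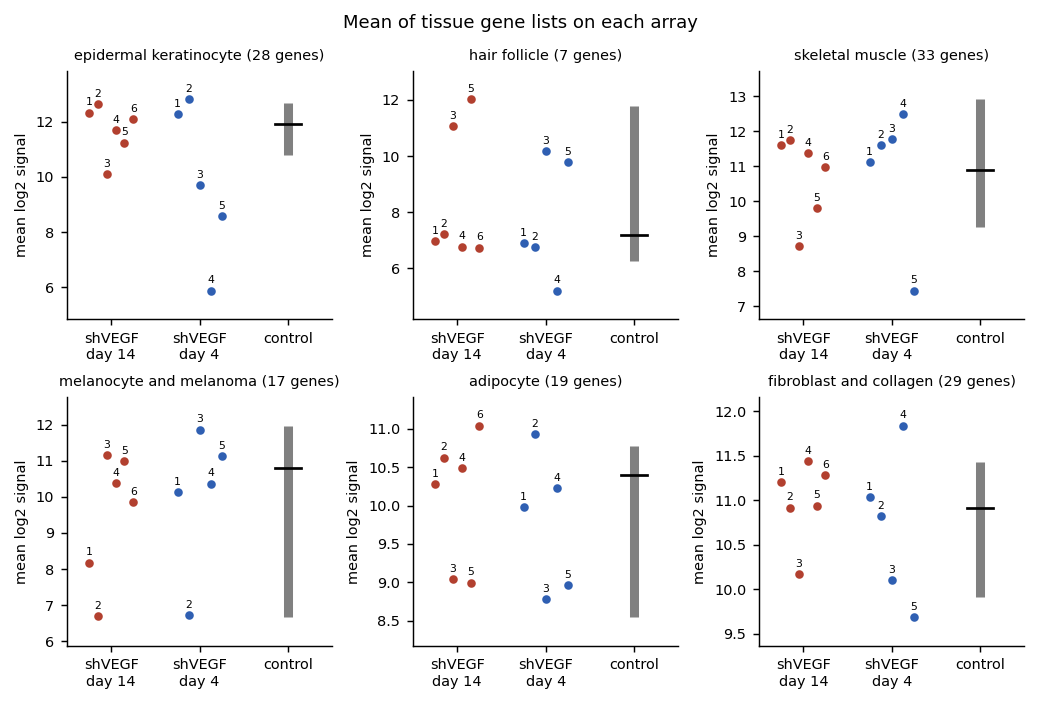
Mean log2 signal of the measured genes of 6 tissue lists (vertical axis) on each shVEGF day 14 array (red) and shVEGF day 4 array (blue), with array numbers beside the points. Grey bars span the lowest to the highest of 7 control arrays and black lines mark their medians. Epidermal genes were lowest on day 4 array 4 at 5.88, muscle genes on day 4 array 5 at 7.44, pigment genes on array 2 of both days at 6.69 and 6.73, and hair follicle genes were high on arrays 3 and 5 of both days.

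No gene differed between the days past the test. With limma's moderated test on the 11 arrays, 0 of 9869 genes (0%) had a Benjamini-Hochberg adjusted p under 0.05, and the smallest adjusted p was 0.9998. At an unadjusted p under 0.05 there were 90 genes (0.912%), of which 67 (0.679%) had a positive and 23 (0.233%) a negative difference, day 14 minus day 4. If no gene differed, about 493 would have such a p on average. With the array number as a block, on arrays 1 to 5 of both days, 597 genes (6.05%) had an unadjusted p under 0.05, again with 0 called and a smallest adjusted p of 0.737. The same 10 arrays without the block gave 47. Unless stated, SEs, intervals and p-values of single genes are from the fit of all 11 arrays without a block. The block moved p-values of single genes either way. With it, the unadjusted limma p was 0.0161 for Oca2 and 0.00612 for Col1a2, smaller than without it. For Asb2 it was 0.068, larger than without it, and none of these was called. Leaving out 1 array moved the count of 90 by over 1.5 times in 7 cases, to 37, 270, 44 and 47 without day 14 arrays 1, 3, 4 and 6, and to 471, 472 and 31 without day 4 arrays 1, 2 and 3, with 0 called each time. A positive difference was found for 4554 genes (46.1%), and the median difference over all genes was -0.03. With each array scaled to a common 75th percentile in place of quantile normalization, 35.4% of genes had a positive difference and the median was -0.13. Differences exceeded 1 in size for 363 genes, and the median standard error (SE) was 0.33. The values given here passed no adjusted test, and every gene's adjusted limma p in the fit of all 11 arrays without a block was at least 0.9998.

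In a single gene of the 9869 (0.0101%), Ppp1r13b, every day 14 array lay above every day 4 array, and in 0 genes (0%) every day 14 array lay below. Ppp1r13b encodes a p53-binding protein of the ASPP family, and it was picked after its values were seen. It had signals of 9.43, 9.27, 9.98, 9.25, 10.18 and 9.32 on day 14 arrays 1 to 6, against 9.07, 9.12, 9.20, 8.97 and 9.17 on day 4 arrays 1 to 5. The 2 groups were separated by the small gap between 9.25 and 9.20, and the difference was 0.47 (SE 0.22, unadjusted p = 0.0596). The 7 control arrays had a mean of 9.33 ± 0.39 (SD, n = 7).

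Vegfa, the gene that the hairpin name points to, did not differ detectably between the days. Its brighter probe had signals of 9.08, 9.83, 10.61, 10.20, 9.66 and 10.19 on day 14 arrays 1 to 6, against 9.78, 9.77, 9.68, 10.25 and 10.68 on day 4 arrays 1 to 5. Day 14 array 1 was the lowest and day 4 array 5 the highest, and the groups overlapped. The means were 9.93 ± 0.53 (SD, n = 6) at day 14, 10.03 ± 0.43 (SD, n = 5) at day 4 and 10.02 ± 0.59 (SD, n = 7) in control tissue. The difference was -0.10 (SE 0.30), with a 95% interval from -0.76 to 0.55. An exact two-sided permutation test over the 462 ways to split the arrays gave p = 0.734, where the smallest p the design allows is 0.00216. The dimmer probe gave a difference of -0.16. The sign turned without day 14 array 1 (0.067) and without day 4 array 5 (0.059). Host and tumor cells both make Vegfa, and the arrays do not separate them.

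Of the 10 listed VEGF ligands and receptors, 8 were measured. Kdr and Flt4, the main receptors of blood and lymphatic endothelium, were not analysed here. Of the 8, 4 had a positive and 4 a negative difference, with a median of 0.00 (-0.13 with 75th percentile scaling) (-0.16 without day 4 array 2 to 0.11 without day 4 array 3) beside -0.03 over all genes, and 0 had an unadjusted p under 0.05. Vegfb, the brightest, had 10.37 to 12.44 at day 14 (median 11.27), against 10.61, 9.56, 12.95, 11.78 and 12.69 on day 4 arrays 1 to 5, and its difference was -0.30 (SE 0.60, unadjusted p = 0.630). Arrays 1 and 2 of both days were the lowest. Vegfc had 8.24 to 9.003 at day 14 (median 8.71), against 8.43, 7.68, 9.05, 8.44 and 9.50 on day 4 arrays 1 to 5. Vegfd had 8.36 to 10.80 at day 14 (median 10.22), against 9.79, 10.10, 8.37, 10.64 and 9.01 on day 4 arrays 1 to 5, with a difference of 0.42 (SE 0.48, unadjusted p = 0.403). Array 3 of both days was the lowest for Vegfd. Pgf, placental growth factor, was near background on arrays 1 and 2 of day 14 and array 2 of day 4, and had 4.43 to 9.004 at day 14 (median 6.45), against 5.88, 4.82, 7.18, 6.69 and 9.42 on day 4 arrays 1 to 5. Its difference was -0.32 (SE 0.93, unadjusted p = 0.734), and it was detected on 4 of 6 day 14 and 4 of 5 day 4 arrays.

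Among the receptors, Flt1 had 9.36 to 10.21 at day 14 (median 9.88), against 9.60, 9.67, 9.75, 10.62 and 8.89 on day 4 arrays 1 to 5. Nrp1, the neuropilin that binds VEGF-A, had 10.92 to 11.39 at day 14 (median 11.12), against 10.998, 10.79, 11.05, 11.76 and 10.58 on day 4 arrays 1 to 5. Nrp2, which binds VEGF-C, had 5.39 to 6.16 at day 14 (median 5.69), against 5.55, 5.46, 7.28, 6.18 and 4.49 on day 4 arrays 1 to 5. The groups overlapped for all 3 receptors, with differences of 0.10 (SE 0.30), 0.10 (SE 0.24) and -0.08 (SE 0.41). On day 4 the highest signal of Flt1 and Nrp1 was on array 4 and the lowest of all 3 on array 5.

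**Figure D3:**
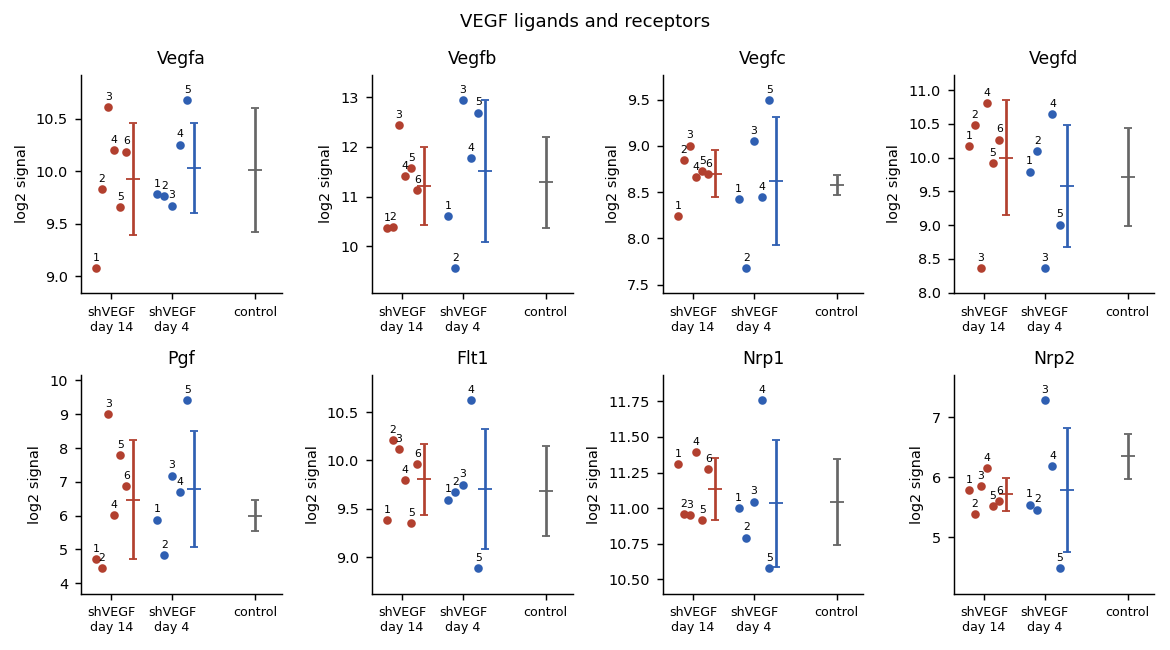
Log2 signal (vertical axis) of 8 VEGF ligands and receptors on each shVEGF day 14 array (red) and shVEGF day 4 array (blue), with array numbers beside the points. Crossbars with whiskers give mean and SD, for 7 control arrays in grey. In each of the 8 genes the day 14 and day 4 points overlap, as for Vegfa with means of 9.93 at day 14 and 10.03 at day 4.

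Other vessel genes gave small differences. Of 20 measured blood endothelial genes, 13 had a positive difference and the median was 0.04 (-0.08 with 75th percentile scaling), with values from -0.12 without day 4 array 3 to 0.18 without day 4 array 4. The median was 0.29 without day 4 arrays 4 and 5 together. Sox18, a transcription factor of endothelium, had 7.19 to 7.90 at day 14 (median 7.72), against 7.85, 7.71, 8.06, 8.34 and 8.10 on day 4 arrays 1 to 5, a difference of -0.37 (SE 0.20, unadjusted p = 0.0911). Of the day 14 arrays, 3 lay below all day 4 arrays. Plvap, the diaphragm protein of fenestrated vessels, had 10.33 to 10.86 at day 14 (median 10.58), against 10.51, 10.70, 10.01, 11.19 and 8.41 on day 4 arrays 1 to 5. Tie1, an endothelial receptor, had 5.89 to 7.11 at day 14 (median 6.67), against 6.31, 6.46, 6.45, 7.02 and 4.62 on day 4 arrays 1 to 5, and day 4 array 5 was the lowest for both. Egfl7, the brightest endothelial gene, had a difference of -0.21 (SE 0.29, unadjusted p = 0.493).

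Mural cell and sprouting genes did not pass the test either. Of 16 pericyte and smooth muscle genes, 13 had a positive difference, with a median of 0.28 (0.18 without day 4 array 3 to 0.40 without day 4 array 2). Notch3, a receptor that mural cells need, had 9.14 to 9.65 at day 14 (median 9.45), against 9.27, 9.45, 8.03, 8.39 and 7.52 on day 4 arrays 1 to 5. Its difference was 0.87 (SE 0.33, unadjusted p = 0.0226), and 3 of 6 day 14 arrays lay above all day 4 arrays. Day 4 arrays 3, 4 and 5 were the low ones. Myl9, Pdgfb and Acta2, genes of contractile cells and of the ligand that recruits pericytes, had differences of 0.36 (SE 0.26), 0.21 (SE 0.18) and 0.28 (SE 0.28). Of 19 angiopoietin, apelin and Notch genes of sprouting vessels, 12 had a positive difference and the median was 0.11 (0.026 without day 4 array 3 to 0.37 without day 4 array 2). Cxcl12, a stromal chemokine, had 10.49 to 11.25 at day 14 (median 11.04), against 10.75, 11.04, 10.11, 10.87 and 10.01 on day 4 arrays 1 to 5, a difference of 0.43 (SE 0.25, unadjusted p = 0.112). Sema3f and Unc5b, guidance genes, had differences of 0.66 (SE 0.44) and 0.55 (SE 0.39), and Thbs2, an inhibitor of vessel growth, 0.35 (SE 0.48). Of 4 lymphatic genes, Mmrn1 had the largest difference, 1.29 (SE 0.95, unadjusted p = 0.202), with 5.10 to 9.74 at day 14 (median 8.56), against 8.75, 8.89, 5.07, 4.71 and 6.33 on day 4 arrays 1 to 5. Day 4 arrays 3 and 4 and day 14 array 3 were near background for Mmrn1. Reln and Pdpn had differences of 0.38 (SE 0.66) and -0.13 (SE 0.31).

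The 15 genes with a positive difference and the smallest unadjusted p are described next, and none was called. They were picked by this contrast, so their direction is no test. In all 15 the 2 groups overlapped. All 15 were detected on every day 14 array, but only 5 of them on every day 4 array. The filter, detection on at least 5 of the 11 arrays, could be passed through day 14 alone. Part of these differences is therefore against day 4 signals that were not detected. For 10 of the 15 the lowest day 4 array was array 4, for 3 array 5 and for 2 array 3, and day 4 array 1 was the highest day 4 array for 11. The control mean lay between the 2 shVEGF means for all 15, nearer to day 14 for 13. Without day 4 arrays 4 and 5 the difference stayed positive in all 15 and was smaller by over 1.5 times in 9, among them Ephb6 (0.99), Tbx1 (0.70), Nkd2 (0.69), Cited4 (0.76), Slc40a1 (0.64) and Tgm3 (0.56).

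Gng13, a G protein gamma subunit known from taste and retinal cells, had 6.73 to 7.64 at day 14 (median 7.30), against 7.02, 4.82, 5.90, 4.43 and 5.71 on day 4 arrays 1 to 5. In this gene 5 of 6 day 14 arrays lay above all day 4 arrays, and day 4 array 1 alone among the day 4 arrays reached the day 14 range. Its difference was 1.68 (SE 0.41, unadjusted p = 0.00141), and it was detected on 6 of 6 day 14 and 2 of 5 day 4 arrays. Control arrays averaged 6.03 ± 0.80 (SD, n = 7). Arg2, the mitochondrial arginase, had 6.603 to 7.41 at day 14 (median 6.96), against 6.76, 6.18, 5.17, 4.95 and 6.32 on day 4 arrays 1 to 5, a difference of 1.10 (SE 0.34, unadjusted p = 0.00657). Its day 14 arrays lay close together, while day 4 arrays 3 and 4 were low. Ephb6, an ephrin receptor without kinase activity, had 7.10 to 8.63 at day 14 (median 8.13), against 8.25, 7.43, 5.38, 4.61 and 5.35 on day 4 arrays 1 to 5. Day 4 arrays 1 and 2 lay within or near the day 14 range and arrays 3 to 5 were low, for a difference of 1.80 (SE 0.61, unadjusted p = 0.0116).

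Nkd1 and Nkd2, which inhibit Wnt signalling by binding Dishevelled, were both among the 15. Nkd1 had 5.56 to 6.74 at day 14 (median 6.33), against 5.94, 5.69, 5.07, 5.28 and 5.11 on day 4 arrays 1 to 5, a difference of 0.86 (SE 0.26, unadjusted p = 0.00706). Nkd2 had 8.04 to 9.38 at day 14 (median 8.66), against 8.41, 8.22, 7.25, 5.89 and 7.31 on day 4 arrays 1 to 5, a difference of 1.24 (SE 0.43, unadjusted p = 0.0134). In Nkd1, 5 of 6 day 14 arrays lay above all day 4 arrays, and in Nkd2, 4 of 6. Tbx1, a transcription factor known from hair follicle stem cells, had 7.93 to 8.64 at day 14 (median 8.37), against 7.96, 8.16, 6.73, 5.61 and 7.01 on day 4 arrays 1 to 5, a difference of 1.23 (SE 0.41, unadjusted p = 0.0111). Tgm3, a transglutaminase that cross-links proteins of hair and cornified skin, had 6.76 to 8.71 at day 14 (median 7.69), against 7.50, 7.03, 6.79, 4.44 and 4.64 on day 4 arrays 1 to 5, a difference of 1.58 (SE 0.60, unadjusted p = 0.0224). Day 4 arrays 4 and 5, low in epidermal genes, were the lowest for Tgm3.

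Cited4, a transcriptional co-activator, had 8.91 to 10.17 at day 14 (median 9.32), against 9.44, 7.95, 8.48, 7.98 and 7.19 on day 4 arrays 1 to 5, a difference of 1.18 (SE 0.37, unadjusted p = 0.00775). Slc40a1, the iron exporter ferroportin, had 10.62 to 12.21 at day 14 (median 10.81), against 10.90, 10.67, 9.68, 8.55 and 9.88 on day 4 arrays 1 to 5, a difference of 1.12 (SE 0.43, unadjusted p = 0.0229). Cbs, cystathionine beta-synthase, had 6.28 to 7.89 at day 14 (median 6.71), against 6.27, 6.18, 5.93, 4.58 and 6.29 on day 4 arrays 1 to 5, a difference of 1.04 (SE 0.39, unadjusted p = 0.02). In each of these 3, day 4 array 1 or 5 reached into the day 14 range. Gpha2, a subunit of the hormone thyrostimulin, had a difference of 0.98 (SE 0.32, unadjusted p = 0.0104), and Unc79, part of the complex of a sodium leak channel, 0.76 (SE 0.24, unadjusted p = 0.00841). Bspry and Ripor3 had differences of 0.97 (SE 0.35) and 0.94 (SE 0.36).

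**Figure D4:**
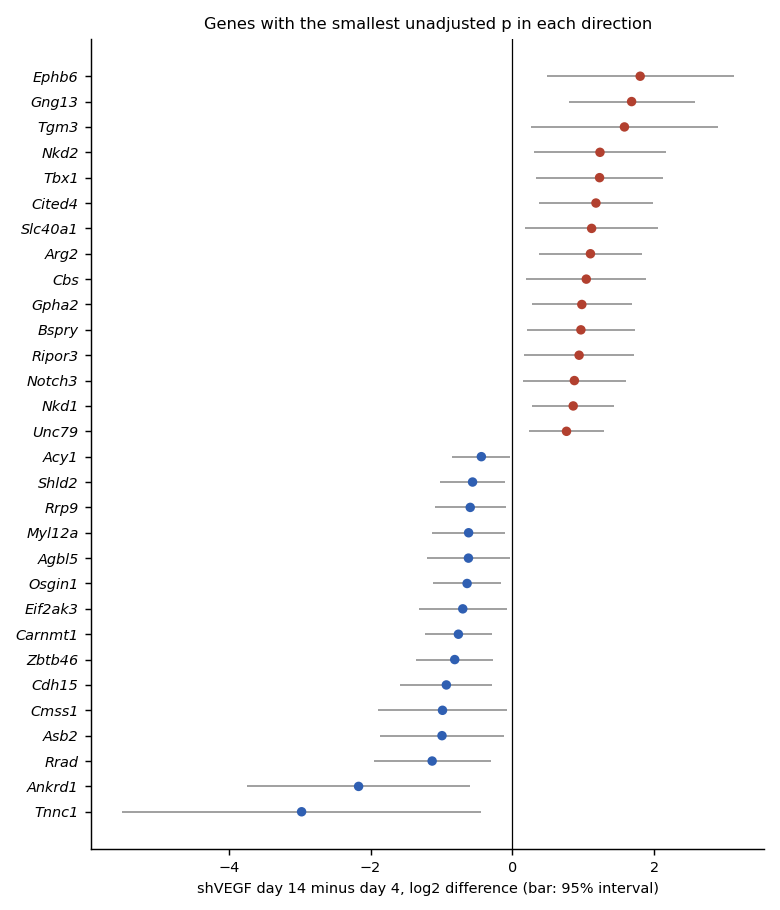
Difference in log2 signal, shVEGF day 14 minus day 4 (horizontal axis), of the 15 genes with a positive (red) and the 15 with a negative difference (blue) that had the smallest unadjusted p, with 95% intervals as bars. The differences run from -2.97 for Tnnc1 to 1.80 for Ephb6, and none was called after adjustment over all genes.

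The 15 genes with a negative difference and the smallest unadjusted p had differences from -2.97 to -0.44. The groups overlapped in all 15. All 15 were detected on every day 4 array, but only 9 of them on every day 14 array, and the filter could be passed through day 4 alone. Day 4 array 1 was the lowest day 4 array for 8 of them, and array 5 was the highest for 6 and array 4 for 4. Without day 4 arrays 4 and 5 the difference stayed negative in all 15 and was smaller by over 1.5 times in 3, Asb2 (-0.44), Eif2ak3 (-0.37) and Agbl5 (-0.33).

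Of these 15, only 2 were members of a list, Tnnc1 of the skeletal muscle and Zbtb46 of the dendritic cell list. Tnnc1, troponin C of slow muscle, had 5.26 to 6.50 at day 14 (median 5.53), against 7.26, 5.38, 11.31, 12.85 and 6.35 on day 4 arrays 1 to 5. Day 4 arrays 3 and 4 were far above the other 9, for a difference of -2.97 (SE 1.16, unadjusted p = 0.0252). Control arrays averaged 6.48 ± 2.66 (SD, n = 7), and the mean of all muscle genes was also highest on day 4 array 4 at 12.49. Ankrd1, a muscle ankyrin repeat protein induced by stretch and injury, had 4.53 to 6.43 at day 14 (median 5.36), against 6.18, 9.64, 9.48, 6.79 and 5.93 on day 4 arrays 1 to 5. Day 4 arrays 2 and 3 were the high ones, and the difference was -2.17 (SE 0.72, unadjusted p = 0.0107), and it was detected on 4 of 6 day 14 arrays. Rrad, a small GTPase of muscle, had 5.38 to 6.56 at day 14 (median 5.96), against 6.43, 7.78, 8.25, 6.73 and 6.26 on day 4 arrays 1 to 5, a difference of -1.13 (SE 0.38, unadjusted p = 0.0114), with the same 2 arrays high. Cdh15, the cadherin of muscle precursor cells, had 5.12 to 6.06 at day 14 (median 5.45), against 5.39, 6.50, 6.38, 7.12 and 6.54 on day 4 arrays 1 to 5, a difference of -0.93 (SE 0.30, unadjusted p = 0.00872). Asb2, a ubiquitin ligase subunit of muscle, had 8.20 to 8.81 at day 14 (median 8.53), against 8.74, 8.52, 9.64, 11.09 and 9.61 on day 4 arrays 1 to 5, a difference of -0.99 (SE 0.40, unadjusted p = 0.0294). Day 4 array 1 lay within the day 14 range for Cdh15 and Asb2.

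Carnmt1, the carnosine N-methyltransferase, had 5.05 to 5.75 at day 14 (median 5.32), against 5.52, 6.39, 6.27, 6.30 and 6.08 on day 4 arrays 1 to 5, and 5 of 6 day 14 arrays lay below all day 4 arrays. Its difference was -0.76 (SE 0.22, unadjusted p = 0.00432). A second probe of similar brightness (mean 5.64, against 5.69) gave only -0.06. Zbtb46, a transcription factor of classical dendritic cells and endothelium, had 4.93 to 6.06 at day 14 (median 5.54), against 6.04, 5.91, 6.55, 6.62 and 6.39 on day 4 arrays 1 to 5, a difference of -0.81 (SE 0.25, unadjusted p = 0.00671). Again 5 of 6 day 14 arrays were below all day 4 arrays. Eif2ak3, the endoplasmic reticulum stress kinase PERK, had 4.72 to 5.39 at day 14 (median 5.14), against 5.16, 5.18, 6.04, 5.93 and 6.63 on day 4 arrays 1 to 5, a difference of -0.70 (SE 0.28, unadjusted p = 0.0296), with day 4 arrays 3, 4 and 5 above all day 14 arrays. Osgin1, a gene of the oxidative stress response, had 6.32 to 6.75 at day 14 (median 6.63), against 6.58, 7.24, 7.27, 7.53 and 7.57 on day 4 arrays 1 to 5, a difference of -0.64 (SE 0.22, unadjusted p = 0.0124). Rrp9, a component of the U3 small nucleolar ribonucleoprotein, had a difference of -0.60 (SE 0.23, unadjusted p = 0.0238), Acy1, aminoacylase 1, of -0.44 (SE 0.19, unadjusted p = 0.0375), and Agbl5, a carboxypeptidase that trims glutamates from tubulin, of -0.62 (SE 0.27, unadjusted p = 0.0386). In each of these 3, 5 of 6 day 14 arrays lay below all day 4 arrays. Shld2, a subunit of the DNA repair complex shieldin, had -0.56 (SE 0.21), Myl12a, a regulatory light chain of non-muscle myosin, -0.62 (SE 0.24), and Cmss1 -0.99 (SE 0.42).

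The genes were also grouped in 35 lists with 523 measured genes, of which 0 were called. In 22 lists the median difference was positive and in 13 negative, and 5 had a median over 0.5 in size. The list means of the 2 groups overlapped in all 35 lists. The range over day 4 arrays was wider than that over day 14 arrays in 28. Leaving out a single array moved the median by over 1.5 times, or turned its sign, in 35 of 35 lists, so the lowest and highest such median stand beside most of the lists described. With the arrays paired by number, the list mean was higher at day 14 in 5 of 5 pairs for 3 lists, those of TGF-beta, hair follicle and clock genes. Of all 9869 single genes, 4.25% were higher in 5 of 5 pairs and 3.96% lower. The count of lists was not tested.

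**Figure D5:**
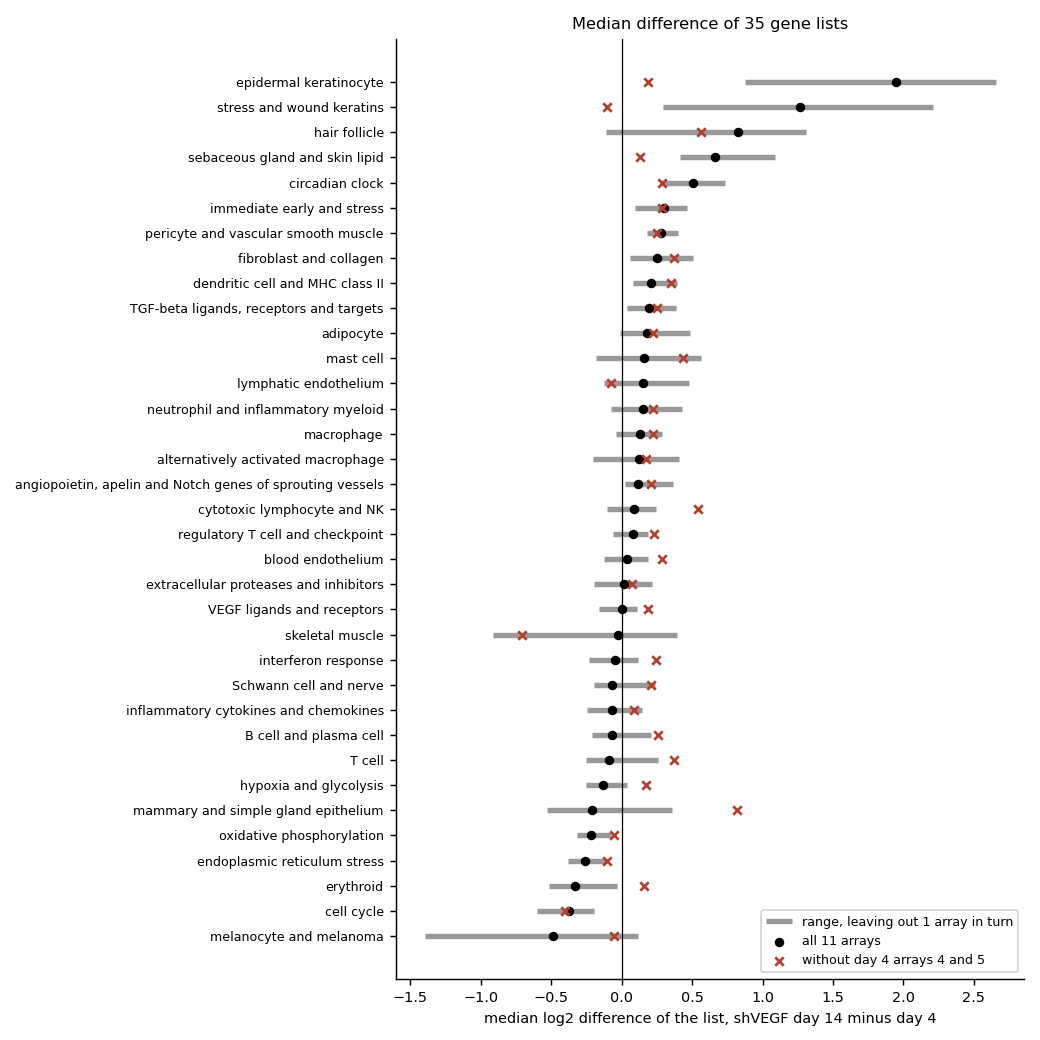
Median log2 difference of the measured genes of 35 lists, shVEGF day 14 minus day 4 (horizontal axis), over all 11 arrays (black points), over the range when each array was left out in turn (grey bars) and without day 4 arrays 4 and 5 (red crosses). The epidermal keratinocyte median was 1.95 with all arrays and 0.18 without those 2 arrays, while the cell cycle median was -0.38 and -0.40.

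Skin genes had the largest median differences. Those of the epidermal, stress keratin and sebaceous lists were far smaller without day 4 arrays 4 and 5. Of 28 epidermal keratinocyte genes, 27 had a positive difference, with a median of 1.95. The median was 0.88 without day 4 array 4, 2.66 without day 4 array 2 and 0.18 without day 4 arrays 4 and 5. Krt14, given above, had a difference of 1.46 (SE 0.67, unadjusted p = 0.0503). Cdsn, corneodesmosin of the cornified layer, had 12.39 to 13.86 at day 14 (median 13.66), against 13.74, 13.80, 11.70, 9.03 and 10.82 on day 4 arrays 1 to 5, a difference of 1.64 (SE 0.75, unadjusted p = 0.0503). Calml3, a calmodulin-like protein of epithelia, had 8.43 to 9.65 at day 14 (median 9.12), against 9.56, 9.08, 7.14, 4.64 and 7.17 on day 4 arrays 1 to 5, a difference of 1.57 (SE 0.72, unadjusted p = 0.0497). Without day 4 arrays 4 and 5 the differences were 0.29 for Krt14, 0.38 for Cdsn and 0.49 for Calml3. In all 3 genes day 4 array 4 was the lowest and day 4 arrays 1 and 2 lay within or near the day 14 range.

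Of 6 stress and wound keratin genes, all 6 had a positive difference, with a median of 1.26. The median was 0.29 without day 4 array 4 and -0.10 without arrays 4 and 5. Krt17, induced in wounded epidermis, had 13.45 to 14.40 at day 14 (median 13.87), against 13.93, 14.42, 12.46, 8.24 and 11.94 on day 4 arrays 1 to 5, a difference of 1.68 (SE 0.87, unadjusted p = 0.0784), and 0.27 without day 4 arrays 4 and 5. Sprr1a, a precursor of the cornified envelope, had 9.84 to 11.19 at day 14 (median 10.25), against 10.56, 11.24, 9.23, 4.56 and 8.78 on day 4 arrays 1 to 5. Krt6b, the partner keratin of wounded skin, had 7.73 to 12.92 at day 14 (median 9.21), against 8.40, 13.81, 7.34, 4.51 and 5.09 on day 4 arrays 1 to 5, and array 2 of both days was the highest. Of 10 sebaceous and skin lipid genes, 9 had a positive difference, with a median of 0.66 (0.42 without day 4 array 4 to 1.09 without day 4 array 1), and 0.13 without day 4 arrays 4 and 5. Elovl4, which makes very long fatty acids of the skin barrier, had 10.31 to 14.04 at day 14 (median 13.26), against 13.89, 13.76, 10.07, 4.86 and 8.70 on day 4 arrays 1 to 5, a difference of 2.52 (SE 1.43, unadjusted p = 0.103), which was 1.17 without day 4 array 4 and 0.21 without arrays 4 and 5. Elovl6 and Scd1, also enzymes of fatty acid synthesis, had differences of 1.08 (SE 0.82) and 0.14 (SE 0.53).

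Of 33 hair follicle genes, 7 were measured, and 5 had a positive difference. The median was 0.83, with values from -0.11 without day 14 array 5 to 1.31 without day 14 array 6. It was 0.08 without day 4 array 4 and 0.56 without day 4 arrays 4 and 5 together. Lgr5, a marker of follicle stem cells, had 6.76 to 8.50 at day 14 (median 7.85), against 7.44, 8.37, 5.71, 4.72 and 6.01 on day 4 arrays 1 to 5, a difference of 1.39 (SE 0.59, unadjusted p = 0.0357), and 0.66 without day 4 arrays 4 and 5. Dlx3, a regulator of hair shaft formation, had 8.83 to 12.26 at day 14 (median 9.50), against 9.19, 9.05, 9.08, 5.48 and 9.51 on day 4 arrays 1 to 5, a difference of 1.48 (SE 0.78, unadjusted p = 0.0819), and 0.73 without day 4 array 4. Sostdc1, an inhibitor of BMP and Wnt signals in the follicle, had 8.17 to 11.54 at day 14 (median 10.05), against 10.19, 10.005, 7.87, 5.97 and 7.20 on day 4 arrays 1 to 5. Day 4 array 4 was the lowest of the 11 for all 3. Krt27 and Krt33a, keratins of the root sheath and hair shaft, followed Krt71. Krt27 had 4.54 to 14.30 at day 14 (median 4.97), against 5.06, 5.11, 13.23, 5.03 and 13.03 on day 4 arrays 1 to 5, and Krt33a had 4.91 to 13.84 at day 14 (median 5.31), against 4.70, 4.81, 12.16, 5.66 and 10.93 on day 4 arrays 1 to 5. Both were high on arrays 3 and 5 of each day, and the differences were -0.41 (SE 2.44) and 0.14 (SE 2.05).

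The list means of muscle, fat and stroma overlapped between the days. Of 33 skeletal muscle genes, 15 had a positive and 18 a negative difference, with a median of -0.03. The median was 0.39 without day 14 array 3, -0.91 without day 4 array 5 and -0.71 without day 4 arrays 4 and 5. Tnnt1, troponin T of slow muscle, had 6.73 to 8.72 at day 14 (median 8.48), against 8.71, 8.56, 11.46, 12.76 and 6.94 on day 4 arrays 1 to 5, a difference of -1.63 (SE 0.90, unadjusted p = 0.0949). As with Tnnc1, day 4 arrays 3 and 4 were the highest. Myoz2, a protein of the muscle Z-line, had a difference of -1.21 (SE 0.90, unadjusted p = 0.204), and Myl1, the brightest muscle gene, 0.38 (SE 0.66, unadjusted p = 0.574). A dimmer probe of Myl1 gave -0.35. Of 19 fat cell genes, 15 had a positive difference, with a median of 0.18 (-0.012 without day 4 array 3 to 0.49 without day 4 array 2). It was 0.061 with 75th percentile scaling and 0.012 with the replicate block. Cidea, a lipid droplet protein also found in sebaceous glands, had 8.92 to 11.20 at day 14 (median 9.98), against 10.91, 10.67, 7.73, 5.71 and 7.49 on day 4 arrays 1 to 5, a difference of 1.43 (SE 0.86, unadjusted p = 0.123), and 0.16 without day 4 arrays 4 and 5. Day 4 arrays 3, 4 and 5 were the low ones. Dgat2, Cebpa and Acly, genes of fat storage and synthesis, had differences of 0.74 (SE 0.62), 0.85 (SE 0.91) and 0.01 (SE 0.28).

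Of 29 fibroblast and collagen genes, 25 had a positive difference. The median was 0.25, with values from 0.06 without day 4 array 5 to 0.51 without day 4 array 4. Col1a1, the main chain of type I collagen, had 12.72 to 14.22 at day 14 (median 13.83), against 14.05, 12.65, 12.17, 13.98 and 10.58 on day 4 arrays 1 to 5, a difference of 1.01 (SE 0.57, unadjusted p = 0.102). Day 4 array 5 was the lowest by over 1 unit. Col15a1 and Col1a2 had differences of 0.60 (SE 0.31) and 0.89 (SE 0.69). Without day 4 array 5 the difference of Col1a1 was 0.49 and that of Col1a2 0.45. Of 18 protease and inhibitor genes, 9 had a positive difference and the median was 0.02 (-0.10 with 75th percentile scaling) (-0.20 without day 4 array 3 to 0.22 without day 4 array 4). Mmp12, the macrophage elastase, had 5.85 to 7.10 at day 14 (median 6.23), against 7.10, 5.50, 6.88, 8.92 and 6.94 on day 4 arrays 1 to 5, with day 4 array 4 the highest. Plau, Ctsl and Mmp2, which degrade matrix, had differences of -0.63 (SE 0.40), -0.58 (SE 0.40) and 0.43 (SE 0.52).

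Of 20 genes of TGF-beta ligands, receptors and targets, 16 had a positive difference, with a median of 0.19 (0.035 without day 4 array 3 to 0.38 without day 4 array 2). Ltbp4, a binding protein that stores latent TGF-beta in matrix, had 9.98 to 11.43 at day 14 (median 11.24), against 11.08, 10.43, 9.46, 10.28 and 8.95 on day 4 arrays 1 to 5, a difference of 0.98 (SE 0.40, unadjusted p = 0.0292), and 4 of 6 day 14 arrays lay above all day 4 arrays. Bmp4, a ligand of the family, had 7.31 to 9.76 at day 14 (median 9.16), against 9.10, 8.72, 7.37, 7.04 and 6.53 on day 4 arrays 1 to 5, a difference of 1.22 (SE 0.53, unadjusted p = 0.0412). Tgfb1 itself had 8.41 to 9.60 at day 14 (median 9.37), against 9.43, 8.14, 9.47, 10.10 and 6.24 on day 4 arrays 1 to 5, and day 4 array 5 stood low, for a difference of 0.56 (SE 0.58, unadjusted p = 0.353), and -0.048 without that array. Id3, a target, and Tgfbr2, the type II receptor, had differences of 0.33 (SE 0.22) and 0.12 (SE 0.38).

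Pigment and proliferation genes leaned the other way, without passing the test. Of 17 melanocyte and melanoma genes, 16 had a negative difference, with a median of -0.49. The median was 0.11 without day 14 array 2, -1.40 without day 4 array 2 and -0.05 without day 4 arrays 4 and 5. Oca2, a melanosomal transporter, had 4.36 to 8.74 at day 14 (median 6.92), against 7.72, 4.47, 11.24, 8.59 and 9.98 on day 4 arrays 1 to 5, a difference of -1.72 (SE 1.22, unadjusted p = 0.185). Gpr143, a receptor of the melanosome, had 4.38 to 9.57 at day 14 (median 6.88), against 7.65, 4.58, 11.05, 7.73 and 9.70 on day 4 arrays 1 to 5, a difference of -1.26 (SE 1.22, unadjusted p = 0.320). Array 2 of both days and day 14 array 1 were near background for both genes. Rab38, a GTPase of melanosome traffic, had a difference of -0.51 (SE 0.48, unadjusted p = 0.307), and Gpnmb, the brightest gene of the list, -0.07 (SE 0.90, unadjusted p = 0.938). Dimmer probes of Gpnmb ran from -0.65 to 0.79.

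All 25 measured cell cycle genes had a negative difference, where 53.9% of all genes did. The median was -0.38, with values from -0.60 without day 4 array 4 to -0.20 without day 4 array 5, and -0.40 without both. None had an unadjusted p under 0.05. Tpx2, a spindle assembly factor, had 4.62 to 6.29 at day 14 (median 5.38), against 5.58, 6.30, 6.86, 5.01 and 7.17 on day 4 arrays 1 to 5, a difference of -0.78 (SE 0.41, unadjusted p = 0.0795). Pcna, the sliding clamp of DNA replication, had 4.75 to 6.35 at day 14 (median 5.52), against 5.26, 5.84, 7.01, 5.44 and 7.01 on day 4 arrays 1 to 5, a difference of -0.63 (SE 0.40, unadjusted p = 0.143). Nusap1, a spindle protein, had 7.67 to 9.50 at day 14 (median 8.19), against 8.34, 9.22, 9.22, 8.13 and 9.20 on day 4 arrays 1 to 5, and Cenpa, the histone of centromeres, 10.74 to 12.10 at day 14 (median 11.54), against 11.39, 11.51, 12.56, 11.48 and 12.42 on day 4 arrays 1 to 5. The groups overlapped in all 4, and day 4 arrays 3 and 5 were the highest of day 4 or level with the highest. Those 2 arrays also had high pigment means, 11.86 and 11.12, and the part of the pigment cells in the cell cycle result was not tested.

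No lymphocyte gene passed the test. Of 12 T cell genes, 4 had a positive difference, with a median of -0.09 (-0.26 without day 4 array 2 to 0.26 without day 4 array 4), and 0.37 without day 4 arrays 4 and 5. Trat1, an adaptor of the T cell receptor, had 5.72 to 7.18 at day 14 (median 6.69), against 6.76, 6.51, 4.88, 4.92 and 4.46 on day 4 arrays 1 to 5, a difference of 1.08 (SE 0.45, unadjusted p = 0.0322). It was detected on 6 of 6 day 14 and 2 of 5 day 4 arrays. Thy1 and Cd8b1 had differences of 0.30 (SE 0.31) and -0.20 (SE 0.25). Of 10 regulatory T cell and checkpoint genes, 5 had a positive difference, with a median of 0.08 (-0.058 without day 4 array 3 to 0.19 without day 4 array 4). Foxp3, the regulator of those cells, had 9.08 to 9.34 at day 14 (median 9.20), against 9.38, 9.11, 9.88, 9.39 and 9.46 on day 4 arrays 1 to 5, a difference of -0.24 (SE 0.19, unadjusted p = 0.220), and a dimmer probe gave 0.12. Icos, Il10 and Cd274, which encodes the ligand PD-L1, had differences of 0.34 (SE 0.29), 0.41 (SE 0.41) and -0.30 (SE 0.51). Of 7 cytotoxic and NK genes, 5 had a positive difference, with a median of 0.09 (-0.11 without day 4 array 3 to 0.24 without day 4 array 4), and 0.55 without day 4 arrays 4 and 5. Klrk1, the receptor NKG2D, had 5.87 to 6.41 at day 14 (median 6.10), against 6.06, 5.55, 5.03, 6.02 and 5.95 on day 4 arrays 1 to 5, and 4 of 6 day 14 arrays lay above all day 4 arrays. Its difference was 0.37 (SE 0.23, unadjusted p = 0.135). Xcl1, Klrd1 and Prf1, the gene of perforin, had 0.32 (SE 0.54), 0.12 (SE 0.31) and 0.09 (SE 0.35). Of the B cell list 2 of 16 genes were measured, Blnk with 0.43 (SE 0.34) and Cd79b with -0.56 (SE 0.58).

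No myeloid gene passed the test. Of 23 macrophage genes, 16 had a positive difference, with a median of 0.13 (-0.04 with 75th percentile scaling) (-0.039 without day 4 array 5 to 0.29 without day 4 array 4). Cx3cr1, the fractalkine receptor, had 5.79 to 7.94 at day 14 (median 7.07), against 6.51, 5.84, 5.88, 5.54 and 7.36 on day 4 arrays 1 to 5, a difference of 0.78 (SE 0.41, unadjusted p = 0.0811). Ccr2, a gene of monocytes, and the lysozyme genes Lyz2 and Lyz1 had 0.30 (SE 0.27), 0.39 (SE 0.39) and 0.13 (SE 0.18). Dimmer probes, detected on all 11 arrays, gave 1.20 and 1.04 for Lyz1 and 0.49 for Lyz2. Of 13 genes of alternatively activated macrophages, 9 had a positive difference, with a median of 0.13 (-0.04 with 75th percentile scaling) (-0.20 without day 4 array 5 to 0.41 without day 4 array 4). Chil3, a chitinase-like protein, had 4.81 to 8.63 at day 14 (median 6.51), against 5.70, 7.99, 6.15, 12.98 and 6.91 on day 4 arrays 1 to 5, a difference of -1.55 (SE 1.17, unadjusted p = 0.210). Day 4 array 4 was the highest by over 4 units, and the difference was -0.29 without it. Retnla, the brightest of the list, had 10.95 to 13.84 at day 14 (median 12.51), against 13.08, 11.71, 12.19, 14.04 and 9.91 on day 4 arrays 1 to 5, and Trem2 and Ccl17 had differences of -0.74 (SE 0.80) and 0.50 (SE 0.39). Of 9 neutrophil and inflammatory myeloid genes, 5 had a positive difference, with a median of 0.15 (-0.073 without day 4 array 3 to 0.43 without day 4 array 4). Clec4d, Il1r2 and Ltf had -0.83 (SE 0.55), 0.94 (SE 0.74) and 0.69 (SE 0.96).

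Of 18 dendritic cell and MHC class II genes, 12 had a positive difference, with a median of 0.21 (0.084 without day 4 array 2 to 0.39 without day 4 array 1). Cd207, langerin of epidermal Langerhans cells, had 6.98 to 9.90 at day 14 (median 9.30), against 9.98, 8.57, 6.62, 4.67 and 6.43 on day 4 arrays 1 to 5, a difference of 1.502 (SE 0.89, unadjusted p = 0.116), and 0.36 without day 4 arrays 4 and 5. Its lowest value was on day 4 array 4, the array lowest in epidermal genes. H2-Ab1 and Cd74, of antigen presentation, had 0.39 (SE 0.32) and 0.32 (SE 0.30). Dimmer probes gave 1.12 for H2-Ab1, and 0.23 and 0.92 for Cd74. Of 7 mast cell genes, 4 had a positive difference, with a median of 0.16 (-0.18 without day 4 array 3 to 0.57 without day 4 array 2), and the proteases Mcpt4, Cpa3 and Cma1 had 0.77 (SE 0.56), 0.75 (SE 0.56) and 0.54 (SE 0.55). Of 27 interferon response genes, 12 had a positive difference, with a median of -0.04 (-0.23 without day 14 array 3 to 0.12 without day 4 array 5). Oasl1, an antiviral gene, had 6.22 to 7.81 at day 14 (median 7.22), against 7.401, 7.44, 7.48, 8.44 and 7.98 on day 4 arrays 1 to 5, and 5 of 6 day 14 arrays lay below all day 4 arrays. Its difference was -0.67 (SE 0.31, unadjusted p = 0.0513). A probe of similar brightness gave -0.26 and a dimmer one -0.27. Ddx58, Irf7 and B2m had 0.37 (SE 0.33), 0.28 (SE 0.32) and 0.03 (SE 0.17). Of 17 cytokine and chemokine genes, 7 had a positive difference, with a median of -0.07 (-0.25 without day 4 array 3 to 0.15 without day 4 array 4). Cxcl14, a chemokine of skin, had 9.33 to 11.26 at day 14 (median 9.71), against 8.85, 9.75, 9.15, 9.01 and 9.36 on day 4 arrays 1 to 5, a difference of 0.82 (SE 0.35, unadjusted p = 0.0364). Ccl2, which attracts monocytes, had 5.14 to 8.41 at day 14 (median 5.81), against 6.51, 6.45, 7.72, 8.25 and 7.46 on day 4 arrays 1 to 5, a difference of -1.02 (SE 0.56, unadjusted p = 0.0928), with 4 of 6 day 14 arrays below all day 4 arrays and day 14 array 3 above all. Osm and Ccl9 had -0.69 (SE 0.40) and -0.07 (SE 0.39).

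Clock genes had the fifth largest median among the lists. Of 11 circadian clock genes, 10 had a positive difference, with a median of 0.51. The median stayed between 0.28 without day 4 array 5 and 0.73 without day 14 array 3, and was 0.29 without day 4 arrays 4 and 5. Per1, a repressor of the clock, had 10.08 to 11.07 at day 14 (median 10.48), against 10.01, 10.52, 9.12, 10.19 and 8.47 on day 4 arrays 1 to 5, a difference of 0.88 (SE 0.36, unadjusted p = 0.033). Dbp, a clock output gene and the brightest of the list, had 11.10 to 13.01 at day 14 (median 12.77), against 12.67, 12.26, 11.04, 12.11 and 10.75 on day 4 arrays 1 to 5, a difference of 0.53 (SE 0.48, unadjusted p = 0.283). Ciart and Nr1d1, both repressors, had 0.62 (SE 0.41) and 0.67 (SE 0.41). Arrays 3 and 5 of both days, the ones high in hair keratins, had the lowest list means, 7.66 and 8.18 at day 14 and 7.62 and 7.80 at day 4, and the part of these arrays in the difference was not tested.

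Of 18 immediate early and stress genes, 14 had a positive difference, with a median of 0.30 (0.092 without day 4 array 5 to 0.46 without day 4 array 4). Fosb, a partner of Jun, had 5.92 to 9.29 at day 14 (median 7.00), against 5.85, 7.73, 5.38, 6.14 and 5.81 on day 4 arrays 1 to 5, a difference of 1.23 (SE 0.66, unadjusted p = 0.0896). Jund, the heat shock gene Hspa1a and Klf6 had 0.78 (SE 0.40), 0.92 (SE 0.49) and 0.63 (SE 0.53). Without day 4 array 5 the difference of Klf6 was 0.058. Of 15 endoplasmic reticulum stress genes, 11 had a negative difference, with a median of -0.26 (-0.38 without day 4 array 1 to -0.12 without day 4 array 4). Asns, asparagine synthetase, had 9.48 to 10.80 at day 14 (median 10.50), against 9.95, 11.25, 10.84, 10.89 and 11.39 on day 4 arrays 1 to 5, a difference of -0.57 (SE 0.33, unadjusted p = 0.108). Sesn2, Atf4 and Hsp90b1 had 0.78 (SE 0.53), -0.45 (SE 0.31) and -0.02 (SE 0.23). Of 29 oxidative phosphorylation genes, 27 had a negative difference, with a median of -0.21 (-0.32 without day 4 array 1 to -0.077 without day 4 array 5), and -0.05 without day 4 arrays 4 and 5. Cox7a2, a subunit of cytochrome oxidase, had 6.90 to 9.24 at day 14 (median 7.45), against 7.58, 7.89, 9.10, 7.89 and 9.40 on day 4 arrays 1 to 5, a difference of -0.75 (SE 0.46, unadjusted p = 0.128). Atp5a1, Ndufb5 and Atp5b had -0.62 (SE 0.36), -0.75 (SE 0.47) and -0.04 (SE 0.16). Of 25 hypoxia and glycolysis genes, 9 had a positive difference, with a median of -0.13 (-0.25 without day 4 array 2 to 0.041 without day 4 array 5). Pgk1, phosphoglycerate kinase, had 11.38 to 12.999 at day 14 (median 12.13), against 12.52, 11.60, 13.66, 13.24 and 13.45 on day 4 arrays 1 to 5, a difference of -0.67 (SE 0.42, unadjusted p = 0.140). Car12, a carbonic anhydrase induced by hypoxia, had 9.02 to 11.22 at day 14 (median 10.13), against 11.07, 11.43, 7.11, 5.43 and 9.16 on day 4 arrays 1 to 5, and Epas1 and Ldha had differences of 0.87 (SE 0.64) and -0.12 (SE 0.19).

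The remaining lists are of other cell types. Of 7 genes of simple gland epithelium, 6 had a negative difference, with a median of -0.21 (-0.53 without day 4 array 1 to 0.36 without day 4 array 4), and 0.82 without day 4 arrays 4 and 5. Krt8, a keratin of simple epithelium, had 4.99 to 9.69 at day 14 (median 7.59), against 5.20, 7.27, 6.62, 9.98 and 9.38 on day 4 arrays 1 to 5, and Elf5, Cldn3 and Cldn7 had differences of -0.31 (SE 0.33), 0.28 (SE 0.32) and -0.21 (SE 0.28). Both measured erythroid genes had a negative difference, Alas2 with -0.62 (SE 0.41) and Car2 with -0.05 (SE 0.44). Of 8 Schwann cell genes, 3 had a positive difference, with a median of -0.06 (-0.19 without day 4 array 2 to 0.24 without day 4 array 5). Egr2 had 0.86 (SE 0.58), Ncmap 0.36 (SE 0.34), Mag -0.34 (SE 0.33) and Mbp -0.03 (SE 0.55).

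The 10 genes with the largest SD within the groups held 3 members of the hair follicle list, 3 of the melanocyte list, 1 of the keratinocyte list and 3 of no list (Stfa1, Syt4 and Tchhl1). They were Krt27, Krt71, Krt33a, Mlana, Pmel, Stfa1, Syt4, Tchhl1, Tyrp1 and Krt77. Stfa1, a cysteine protease inhibitor, had 8.44 to 14.39 at day 14 (median 12.11), against 13.63, 14.44, 6.05, 4.65 and 7.72 on day 4 arrays 1 to 5, a difference of 2.69 (SE 1.78, unadjusted p = 0.157), and 0.61 without day 4 arrays 4 and 5. Krt77, a type II keratin of skin, had 8.04 to 12.84 at day 14 (median 12.37), against 12.83, 12.67, 9.15, 4.40 and 4.45 on day 4 arrays 1 to 5, a difference of 2.57 (SE 1.67, unadjusted p = 0.149), and -0.28 without day 4 arrays 4 and 5. Day 4 array 4 was the lowest for both. Pmel and Tyrp1, of melanosomes, had differences of -0.87 (SE 1.81) and -0.49 (SE 1.68). Syt4, a synaptotagmin, had 4.45 to 12.79 at day 14 (median 11.90), against 11.49, 4.53, 13.07, 12.02 and 12.78 on day 4 arrays 1 to 5, low on array 2 of both days like the pigment genes. Tchhl1, a relative of trichohyalin, had 4.68 to 12.45 at day 14 (median 4.86), against 5.14, 4.73, 9.80, 5.23 and 10.09 on day 4 arrays 1 to 5, high on arrays 3 and 5 of both days like the hair keratins.

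The change between the days was set against that in the other lines with an interaction term over all 38 arrays. Between shVEGF and B16-WT, 0 of 9869 genes (0%) differed in their change at an adjusted limma p under 0.05, and 100 (1.01%) had an unadjusted p under 0.05, with a smallest adjusted p of 0.988. Between shVEGF and shTGFb, 0 genes (0%) were called and 278 (2.82%) had an unadjusted p under 0.05, with a smallest adjusted p of 0.848. The Vegfa change was -0.25 (SE 0.51) relative to B16-WT and -0.35 (SE 0.48) relative to shTGFb. Of the genes named above, Eif2ak3 had a change of -0.70 in shVEGF and 0.60 in B16-WT tissue, a difference of -1.30 (SE 0.42). Zbtb46 had a change of -0.81 in shVEGF and 0.58 in shTGFb tissue, a difference of -1.39 (SE 0.40). Arg2 had 1.10 in shVEGF and -1.41 in shTGFb tissue, a difference of 2.51 (SE 0.79). Among the named genes, Eif2ak3 had the smallest p of the contrast with B16-WT, and Zbtb46 and Arg2 those of the contrast with shTGFb, and none was called. These genes were picked above for a small p in the shVEGF contrast. That contrast is part of each difference between lines, so the size of these differences is no test. The epidermal keratinocyte median was 1.95 in shVEGF, -1.06 in B16-WT and -0.33 in shTGFb tissue, the cell cycle median -0.38, 0.24 and 0.28, and the circadian clock median 0.51, -0.54 and -0.20. List medians were not tested between lines.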

How the data were processed

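RNA from whole tissue was measured on 38 Illumina bead arrays, 11 of them labelled shVEGF. Per the labels' protocols, RNA was taken up in Trizol, cleaned on columns with DNase I, and turned into biotin-labelled cRNA. BeadStudio and limma are listed in the submitters' processing notes, without versions.

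The deposited non-normalized table holds, for each of 45272 probes, a linear signal intensity and a detection p-value per array. The authors' deposited log2 table of 16247 probes was checked and equals log2 of these intensities after quantile normalization alone, to within 4.97e-14. All columns belonged to a sample (0 did not). Intensities were background-corrected with limma 3.58.1 in R 4.3.3, by the normal-exponential model with detection p-values and an offset of 16, quantile-normalized over all 38 arrays and taken as log2. Raw medians per array were 111.6 to 148.1. Precision is limited by how many arrays a group has.

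Only probes of the log2 table could be named, from GEO's platform annotation: 14836 had 1 symbol, 5 several and 1406 none, and 14830 were matched by Entrez identifier to RefSeq GRCm38.p6. Probes had to be detected (p under 0.05) on at least 5 of the 11 arrays, which removed 34. The probe with the highest mean stood for a gene, giving 9869 genes, 3479 of them with several probes. Other probes of the named genes gave another sign for Foxp3, Gpnmb, Mbp, Myl1, Pmel and Prf1. For further genes they gave the same sign but another size, and only some of these values are given.

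The test was limma's moderated linear model on the 11 arrays alone, so that other lines did not set the error, with Benjamini-Hochberg adjustment over all genes. The contrasts with B16-WT and shTGFb used 7 group means over 38 arrays. The test was checked on simulated data. Same-number samples of the 2 days were compared by the correlation of their deviations from the group means. It was 0.25 to 0.75, over 0.1 for all 5 pairs, so the numbers were taken to pair the samples and the fit with a block was run beside the unpaired one. Values of single genes are from the unpaired fit unless the block is named. The numbers are those of the titles. The descriptions give replicate 5 for every shVEGF sample, and the labels do not state what a number stands for.

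The samples, the gene lists and the rule for named genes were chosen with earlier results of these data known. The rule took all measured VEGF ligands and receptors, the 15 genes of each direction with the smallest p where fewer were called, from each list the 3 members with the smallest p and the brightest, the 10 genes with the largest SD within groups, and 10 tissue markers. Medians of lists carry no test. Alternatives changed the background correction, offset, normalization, detection filter, arrays fitted, block, array weights, variance model and probe rule, and left out arrays.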

Additional observations from a re-analysis of the deposited data

Results flagged for a closer look

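Values are Dixon's ratio, the gap of the lowest or highest array to its neighbour over the range of its group, listed where it passed the 95% critical value. Of 416 groups tested, 31 passed, where chance passes about 1 in 20 of independent groups. Some genes were picked for their p or their spread, and many flags share an array. That rate is therefore no yardstick for the count. On shVEGF day 14 array 3, the lowest signal of its group stood apart for the mean of the list TGF-beta ligands, receptors and targets (0.662), Vegfd (0.638), Thbs2 (0.689), Epas1 (0.715), Bmp4 (0.722), Tgfbr2 (0.841) and Cdsn (0.707). On shVEGF day 14 array 3, the highest signal of its group stood apart for the mean of the list oxidative phosphorylation (0.827) and Cox7a2 (0.743). On shVEGF day 14 array 2, the lowest signal of its group stood apart for Icos (0.777), Trem2 (0.658), H2-Ab1 (0.738), Cd74 (0.703), Tgfb1 (0.748) and Dct (0.651). On shVEGF day 14 array 2, the highest signal of its group stood apart for Cdh15 (0.650) and Nusap1 (0.655). On shVEGF day 14 array 5, the lowest signal of its group stood apart for Prf1 (0.659). On shVEGF day 14 array 5, the highest signal of its group stood apart for Slc40a1 (0.649). On shVEGF day 4 array 4, the lowest signal of its group stood apart for Cbs (0.784) and Dlx3 (0.884). On shVEGF day 4 array 5, the lowest signal of its group stood apart for the mean of the list skeletal muscle (0.729), Myl1 (0.971) and Klf6 (0.883). On shVEGF day 4 array 2, the lowest signal of its group stood apart for Gpnmb (0.855), Mlana (0.784), Pmel (0.771), Syt4 (0.815), Tyrp1 (0.771) and Dct (0.967). On shVEGF day 4 array 1, the highest signal of its group stood apart for B2m (0.711). The largest ratios were those of Myl1, with 10.67 on day 4 array 5 and 14.48 on the next array, and of Dct, with 8.10 on day 4 array 2 and 13.96 on the next.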

How the results depend on the processing

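The count of 0 called genes was the same under all 24 alternatives run, and also among 7074 detected probes with no gene symbol, of which 69 had an unadjusted p under 0.05. Over these alternatives the smallest adjusted limma p was 0.658. The 2 contrasts with the other lines also gave 0 calls under each alternative run, with smallest adjusted p-values of 0.832 (B16-WT) and 0.474 (shTGFb). With the replicate block, 597 genes had an unadjusted p under 0.05, beside 90, and the block changed no call. Among arrays 1 to 5, the best match of a day 14 array was the same number at day 4 for 4 of 5. The best match of a day 4 array was the same number at day 14 for 4 of 5. The exceptions differed: day 14 array 4 matched day 4 array 1 best, and day 4 array 5 matched day 14 array 3 best. Number 4 had the lowest same-number correlation of deviations, 0.25. A chip as a block was not run, since the headers name no chip. Chosen after seeing the data were the fits without day 4 arrays 4 and 5 (56 genes at an unadjusted p under 0.05), without array 2 of both days (230), and the probes with no symbol.

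Of the 173 named genes, 126 kept the sign of their difference under every alternative run, among them all 30 with the smallest p, and 47 changed it under at least 1. Those 30 were picked by the same contrast on the same arrays, so their kept sign is no test of their direction. Of 35 list medians, 11 kept their sign and 24 did not. Without day 4 arrays 4 and 5, lists whose median turned sign included hypoxia and glycolysis (from -0.13 to 0.17) and interferon response (from -0.04 to 0.24). Others were cytokines and chemokines (from -0.07 to 0.08), Schwann cell (from -0.06 to 0.21) and lymphatic genes (from 0.15 to -0.07). The B cell (from -0.07 to 0.26) and erythroid medians (from -0.33 to 0.16) turned as well. None of the named genes was called under any setting, and the cause of each change was not tested. With 75th percentile scaling, the other sign was found for Vegfc -0.061, Flt1 -0.013, Nrp1 -0.10, Prf1 -0.014, Lyz1 -0.068, B2m -0.11, Tgfbr2 -0.12, Dcn -0.0034, Acly -0.20, Scd1 -0.059, Car2 0.0058, Krt33a -0.0012, Tchhl1 -0.018 and Adipoq -0.032. With array weights, the other sign was found for Vegfa 0.085, Vegfb 0.24, Pgf 0.15, Nrp2 0.078, Egfl7 0.045, Gpnmb 0.35, Klrd1 -0.12, Ccl9 0.021, Myl1 -0.0036, Cldn7 0.038, Krt8 1.93, Mbp 0.32, Hsp90b1 0.10, Mlana 0.33, Syt4 0.66, Tchhl1 -0.37, Tyrp1 0.32 and Dct 0.37. With detection on all 11 arrays, the other sign was found for Pmel 0.12. With the mean of all probes, the other sign was found for Prf1 -0.16. Without background correction, the other sign was found for Car2 0.0048 and Krt71 0.20. With an offset of 50, the other sign was found for Krt71 0.15. With the replicate block, the other sign was found for Acly -0.11, Scd1 -0.019, Krt27 0.25, Krt71 0.56 and Adipoq -0.080. Without array 2 of both days, the other sign was found for Vegfc -0.19, Prf1 -0.18, Krt8 0.17, Hsp90b1 0.0017 and Krt33a -0.081. Without day 4 arrays 4 and 5, the other sign was found for Vegfa 0.19, Vegfb 0.18, Pgf 0.51, Unc5b -0.063, Egfl7 0.020, Reln -0.032, Gpnmb 0.52, Cd8b1 0.050, Cd274 0.25, Cd79b 0.33, Trem2 0.39, Ccl9 0.12, Dcn -0.17, Myl1 -0.39, Cebpa -0.046, Krt6b -0.20, Cldn7 0.033, Krt8 1.11, Car2 0.33, Mbp 0.32, Atp5b 0.014, Krt27 0.079, Krt71 0.33, Mlana 0.62, Pmel 0.11, Syt4 0.80, Tyrp1 0.38, Krt77 -0.28 and Dct 0.65. Leaving out 1 array in turn gave differences on both sides of 0 for Vegfa -0.24 to 0.067, Vegfb -0.79 to 0.058, Vegfc -0.16 to 0.30, Pgf -0.83 to 0.33, Flt1 -0.11 to 0.33, Nrp1 -0.015 to 0.28, Nrp2 -0.40 to 0.30, Pdpn -0.28 to 0.066, Gpnmb -0.88 to 0.50, Cd8b1 -0.33 to 0.0065, Klrd1 -0.11 to 0.31, Prf1 -0.10 to 0.29, Retnla -0.27 to 0.76, B2m -0.0044 to 0.072, Ccl9 -0.29 to 0.30, Tgfbr2 -0.18 to 0.35, Dcn -0.16 to 0.36, Myl1 -0.39 to 0.59, Acly -0.11 to 0.12, Scd1 -0.22 to 0.41, Krt8 -0.84 to 0.36, Car2 -0.33 to 0.20, Mbp -0.39 to 0.30, Hsp90b1 -0.12 to 0.073, Krt27 -1.70 to 0.82, Krt71 -1.44 to 1.15, Krt33a -1.07 to 1.26, Mlana -2.02 to 0.87, Pmel -2.49 to 0.21, Syt4 -1.84 to 0.93, Tchhl1 -0.95 to 0.89, Tyrp1 -2.001 to 0.60, Tgfb1 -0.048 to 0.92, Dct -1.36 to 0.81 and Adipoq -0.19 to 0.60. Only 2 list medians moved by more than the spread of their list mean between arrays. That of angiopoietin, apelin and Notch genes, 0.11, ran from 0.026 to 0.37 without 1 array, and that of simple gland epithelium, -0.21, was 1.32 with array weights and 0.82 without day 4 arrays 4 and 5. On signal over background, Krt71 was detected on 5 of 11 arrays, and its difference of -0.07 was 0.15 with an offset of 50.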
